A study of Mus musculus with 10 samples.

Results

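The phospholipase A2 family was examined here as 10 of the 23930 targets of a mouse transcriptome panel, in lung RNA of mice exposed to house dust mite (HDM) extract with or without nafamostat. The 10 genes were the rows of the count files whose gene name was Pla2g1b, Pla2g2d, Pla2g2e, Pla2g3, Pla2g4a, Pla2g4c, Pla2g5, Pla2g6, Pla2g7 or Pla2g15. The rule was on names, but the names were chosen with earlier results of these data known. Shares of members called are therefore not those of a set chosen blind to the values. Another 10 genes with a Pla2g symbol were on the panel and belong to the neighbouring genes described after the members.

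The study used female BALB/c mice of 8 to 9 weeks, a strain that mounts strong allergic airway responses, and asked how nafamostat, a synthetic inhibitor of serine proteases, alters the response of the lung to HDM. In the HDM+nafamostat group (3 mice), HDM was instilled intranasally and 20 mg/kg of nafamostat was injected intraperitoneally 30 minutes before each instillation. The HDM group (3 mice) received the HDM instillations, and the PBS group (4 mice) received PBS. Instillations were made 2 times per week for 3 weeks according to the methods and the labels, whereas the legends of the study state a longer period, and the lungs were taken 24 hours after the last one. The methods give the HDM dose as 10 μg in 30 μl, and the labels give milligrams and millilitres. The nafamostat was dissolved in 3% acetic acid in PBS, and whether the HDM and PBS mice received that vehicle is not stated in the labels. The methods list HDM mice and HDM mice given vehicle as separate groups. By the legends, control mice received PBS alone. If the HDM mice were not injected, effects of nafamostat and of the injected vehicle cannot be told apart in these data. The labels name no transgene or deletion, and each library came from 1 mouse. For the RNA, the methods name the upper part of the left lobes. In another section they state that right lobes were frozen for work on genes and left lobes were fixed. Those lobes were taken after lung resistance had been measured with nebulized methacholine and after the airways had been lavaged. The lobes for RNA are said to come from separate experiments. The experiment of each mouse, and whether these mice were challenged and lavaged, are not given in the sources used here. Differences between experiments can therefore not be told apart from those between mice.

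Library totals were 8053532 to 9666354 counts for HDM+nafamostat mice, 7105946 to 9354416 for HDM mice and 5901279 to 7353792 for PBS mice. Each count is a read of the 1 amplicon that the panel places in a gene. Levels are therefore given as CPM, reads of a gene scaled to a common library size, with TMM factors that correct for composition, and they are compared between libraries for 1 gene, not between genes. Lung markers were abundant, with Scgb1a1 and Sftpc leading, and none of the 11 was at 0 in all libraries. The library HDM 3 stood apart in its olfactory receptor genes, which summed to 1609 CPM there and to 28.4 to 617 CPM in the other 9 libraries. The next highest were PBS 2 (617 CPM) and HDM+nafamostat 2 (412 CPM). Each of these libraries also had the most targets detected in its group (18015 in HDM 3, 17288 in PBS 2 and 17612 in HDM+nafamostat 2). For the members, the fit without HDM 3 is given where it changed a call or the sign of a fold change. Calls in the gene lists are given with all libraries only.

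Phospholipases A2 cut the fatty acid at the middle position of a membrane phospholipid, which leaves a free fatty acid, often arachidonic acid, and a lysophospholipid. Arachidonic acid feeds the leukotriene and prostaglandin pathways, both of which act on airway smooth muscle and leukocytes in asthma. The family falls into small secreted enzymes that need calcium, cytosolic enzymes that move to intracellular membranes, a calcium-independent enzyme, a lysosomal enzyme, and an acetylhydrolase that inactivates platelet-activating factor (PAF).

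The members differ in how they cut. The coding stretches that follow, each of 30 bases and written 5′ to 3′, hold the active site of each enzyme, and are shown because they are the clearest mark of the classes by which the results are ordered. They were read from GENCODE transcripts on GRCm38, the longest open reading frame of each gene being searched for the motif of its class, and the motif of Pla2g4a was found 2 times, of which the one followed by a threonine codon is shown. In the 5 secreted enzymes the capitals mark the codons of the catalytic histidine and of the aspartate beside it that binds calcium, a pair with cysteine codons on both sides. In the other 5 they mark the codon of the catalytic serine, which has a glycine codon directly after it or 1 codon further on.
Pla2g1b: aggtgctgccagactCATGACcactgctac
Pla2g2d: tggtgctgtcagaagCATGATtgttgctat
Pla2g2e: tggtgttgtcatgccCATGACtgctgctat
Pla2g5: tggtgctgtcagatgCACGACcgttgttat
Pla2g3: ctctgctgccgggaaCACGATcagtgccca
Pla2g4a: attgctggtcttTCTggatccacatggtac
Pla2g4c: ctcgcaggggtcTCTgggtccacttgggca
Pla2g6: gtggcaggaaccAGCacagggggcatcctg
Pla2g7: ttgatgggacatTCTtttggaggagcaaca
Pla2g15: ctggtcgcccacAGCatgggcaacgtgtac

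Pla2g2d, Pla2g5 and Pla2g2e lie in 1 cluster on chromosome 4, with 6 Pla2g genes in 158 kb (GRCm38). Pla2g2d is at chr4:138775735-138782046 on the plus strand, Pla2g5 at chr4:138799244-138863482 on the minus strand and Pla2g2e at chr4:138877942-138882817 on the plus strand. Their coding sequences were 63.2% (Pla2g2d and Pla2g2e), 66.7% (Pla2g2d and Pla2g5) and 69.0% (Pla2g2e and Pla2g5) identical over the aligned bases, and the longest run of identical bases in any of the 3 pairs was 13. The other members are spread over 7 chromosomes, with Pla2g7 at chr17:43568098-43612201 and Pla2g15 at chr8:106150399-106164715. Several members overlap another gene. Pla2g3 shares its locus with Inpp5j on the opposite strand, Pla2g5 encloses Pla2g2a on the opposite strand, and Pla2g6 and Pla2g7 each overlap an antisense transcript. Whether the counting used strand is not given in the sources used here.

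By the test, 6 of the 10 members were higher in HDM than in PBS mice. Pla2g7, Pla2g2d, Pla2g4c and Pla2g3 rose at least 2-fold in HDM mice, Pla2g4a and Pla2g15 rose by less than 2-fold, and Pla2g1b, Pla2g2e, Pla2g5 and Pla2g6 did not pass the test. Genes were called at an adjusted p under 0.05 by edgeR's quasi-likelihood test and at least a 2-fold change. By that rule 4 of the 10 members tested were called higher and 0 lower, against 7.28% called higher and 4.1% lower among the 14608 genes tested. At any fold, 6 members were called higher and 0 lower, against 15.3% and 14.2% of genes. All 10 fold changes were above 0, so that 0 members were lower at an unadjusted p under 0.05, as in DESeq2. Pla2g3, Pla2g4c and Pla2g5 took most of their counts from the HDM mice (27 of 31, 59 of 71 and 39 of 52), so that they reached the minimum of 30 counts, summed over the libraries of a comparison, only through the group in which they were higher. Among the other 7 members 2 were called higher at 2-fold and 4 at any fold, and their median log2 fold change was 0.60, against 1.59 with all 10 and 0.02 over all genes tested.

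In HDM+nafamostat mice set against HDM mice, 1 of the 10 members was called, Pla2g2d, which fell. Among the 14413 genes tested, 0.729% were called lower and 0.104% higher, and at any fold, where the count of members was again 1, these shares were 1.97% and 0.951%. Pla2g7 was lower in each of the 3 HDM+nafamostat mice than in any HDM mouse, but it missed the threshold. The median log2 fold change was −0.30 over the 10 members, −0.26 without Pla2g3, which passed the minimum only through the HDM mice, and −0.01 over all genes tested. Against PBS mice, 2 of the 9 members tested, Pla2g7 and Pla2g4c, were called higher in HDM+nafamostat mice, and among the 14079 genes tested 4.62% were called higher and 1.14% lower. At any fold 4 members were higher, with Pla2g4a and Pla2g15 added, against 8.73% of genes higher and 5.53% lower. Pla2g4c (56 of 68 counts) and Pla2g5 (35 of 48) passed the minimum only through the HDM+nafamostat mice, and among the other 7 members 1 was called higher at 2-fold and 3 at any fold. The HDM libraries enter both of the first 2 comparisons, and the PBS libraries both the first and the third, so these results are not independent of each other. The plot of levels by library shows all 10 genes.

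**Figure D1:**
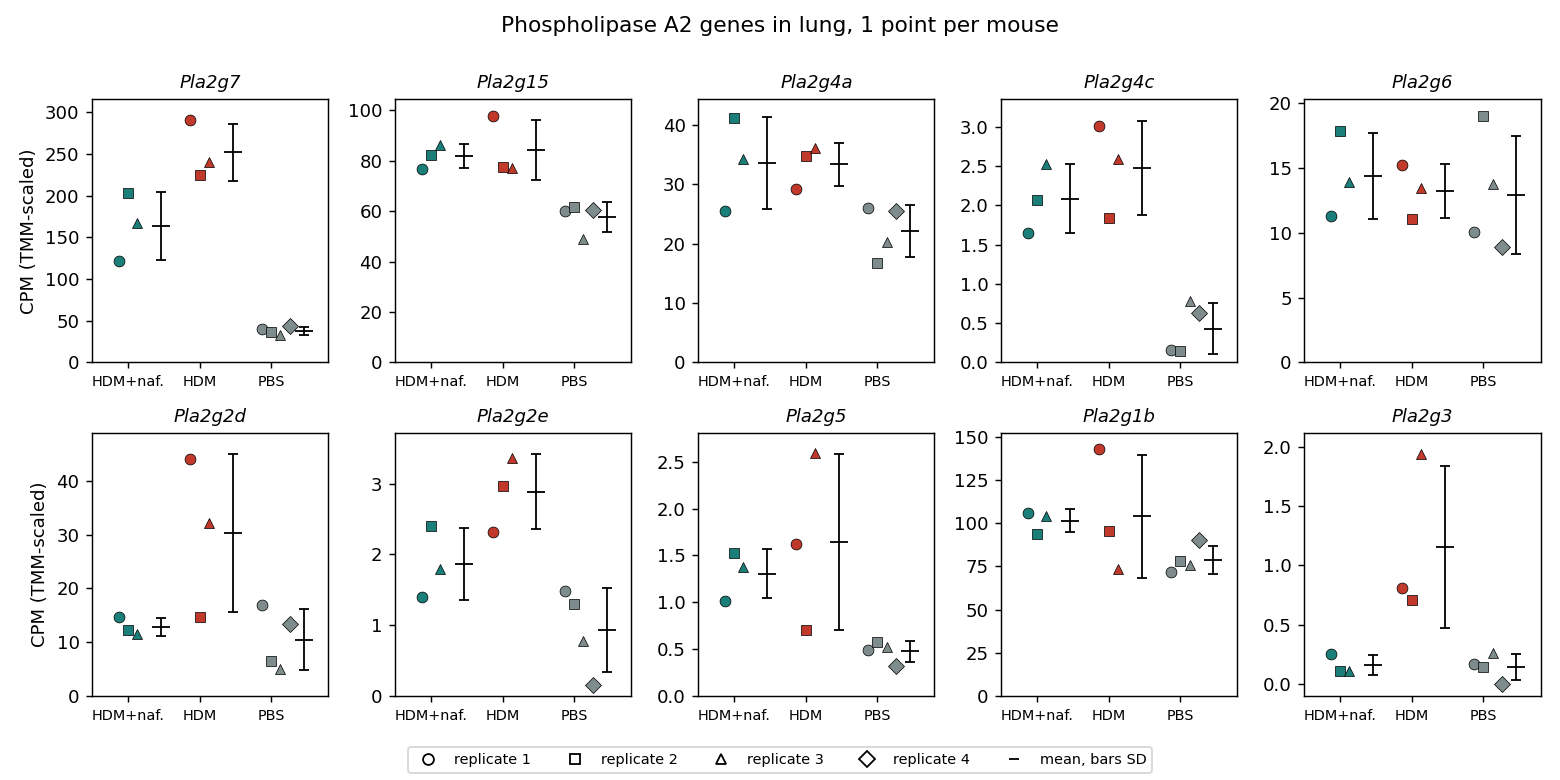
Level of each of the 10 phospholipase A2 genes (CPM after TMM scaling, linear axes that differ between panels) in the HDM+nafamostat, HDM and PBS libraries. Each point is 1 mouse, its shape gives the replicate, and the horizontal mark with bars is the mean ± SD of the group (n = 3, 3 and 4). Pla2g7 lay at 121 to 203 CPM, 224 to 290.3 CPM and 32.4 to 43.1 CPM in the 3 groups, with no overlap.

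Pla2g7 encodes the plasma PAF acetylhydrolase, an enzyme secreted mainly by macrophages that hydrolyses PAF and oxidised phospholipids. It measured 121, 203 and 167 CPM in HDM+nafamostat mice, 290.3, 224 and 240.2 CPM in HDM mice, and 39.8, 36.7, 32.4 and 43.1 CPM in PBS mice. The 3 groups did not overlap, with PBS lowest and HDM highest. Pla2g7 was 6.63-fold higher in HDM than in PBS mice (log2 fold change 2.73, SE 0.14, adjusted p = 3.12e-09, edgeR's quasi-likelihood test). It was called under all 15 alternative settings tried for that comparison, and without HDM 3 the log2 fold change was 2.75. In HDM+nafamostat mice it was 4.34-fold higher than in PBS mice (log2 fold change 2.12, SE 0.17, adjusted p = 1.45e-07, edgeR).

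Between HDM+nafamostat and HDM mice, Pla2g7 differed by a log2 fold change of −0.63 (95% confidence interval −1.004 to −0.254, adjusted p = 0.0669, edgeR), so the difference did not pass the test. It fell below 0.05 in 4 of 14 alternatives, among them DESeq2 (adjusted p = 0.00731) and the edgeR fit without HDM+nafamostat replicate 2 (log2 fold change −0.82, adjusted p = 0.0198), and stayed above it in the other 10, where it reached 0.233. Pla2g7 made up 33.7% to 44.4% of the summed CPM of the 10 members in HDM+nafamostat mice, 46.3% to 49.7% in HDM mice and 16.3% to 17.8% in PBS mice. These shares are of amplicon counts and say nothing about transcript numbers per gene.

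Leukocyte markers also differed between the groups. At any fold, 15.3% of all genes tested rose and 14.2% fell in HDM against PBS mice. Of 13 macrophage markers tested, 11 rose in HDM against PBS mice (edgeR, any fold), and the 14 on the panel, none at 0 in all libraries, summed to 9630 to 11626 CPM in HDM+nafamostat mice, 11335 to 18321 CPM in HDM mice and 6664 to 11354 CPM in PBS mice. In HDM+nafamostat against HDM mice 0 of these 13 passed by edgeR, with 2 higher and 1 lower at an unadjusted p under 0.05 and 1 lower by DESeq2. The shares of all genes there were 0.951% higher and 1.97% lower. Against PBS mice, 10 of the 13 were higher in HDM+nafamostat mice, beside 8.73% of all genes. The median log2 fold change of the 13 markers over PBS was 1.42 in HDM+nafamostat and 1.41 in HDM mice. Lyz2, which type II epithelial cells also make, was 92.1% of that sum. The 7 eosinophil markers, none at 0 in all libraries, summed to 641 to 775 CPM in HDM+nafamostat mice, 1358 to 2101 CPM in HDM mice and 24.5 to 64.0 CPM in PBS mice. Rnase2a alone was 79.9% of that sum. The 10 neutrophil markers summed to 633 to 854 CPM in HDM+nafamostat mice, 1007 to 1414 CPM in HDM mice and 153 to 341 CPM in PBS mice. The sum of the mast cell and basophil markers ran the other way, with 145 to 168 CPM in HDM+nafamostat mice, 126 to 130 CPM in HDM mice and 149 to 183 CPM in PBS mice. Kit was 52.3% of that sum and Hdc 34.7%. Gene by gene, 1 of the 8 tested was higher and 1 lower in HDM against PBS mice (edgeR). Of the PBS libraries, PBS 4 had the highest macrophage sum, 11354 CPM, which is above 1 of the HDM libraries, and 43.1 CPM of Pla2g7. The part of cell numbers in these levels was not tested, and in bulk RNA fewer cells of a type and less RNA per cell cannot be told apart.

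The lysosomal member, Pla2g15, encodes an enzyme of the acidic compartment that alveolar macrophages use to break down surfactant phospholipids. It measured 76.7, 82.3 and 86.1 CPM in HDM+nafamostat mice, 97.9, 77.5 and 77.0 CPM in HDM mice, and 60.1, 61.6, 48.9 and 60.2 CPM in PBS mice. All 6 libraries of HDM-exposed mice were above all 4 PBS libraries, and the HDM+nafamostat and HDM groups overlapped. The rise was 1.46-fold in HDM mice (log2 fold change 0.55, SE 0.14, adjusted p = 0.00878, edgeR) and 1.43-fold in HDM+nafamostat mice (log2 fold change 0.51, SE 0.14, adjusted p = 0.0208, edgeR), both against PBS. The first lost its call without HDM 1 (log2 fold change 0.43, adjusted p = 0.0589, edgeR). The second lost it without PBS 3 (adjusted p = 0.0649, edgeR), HDM+nafamostat 2 (adjusted p = 0.0724) or HDM+nafamostat 3 (adjusted p = 0.0940). Between HDM+nafamostat and HDM mice the log2 fold change was −0.05, with a 95% confidence interval of −0.34 to 0.24.

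Pla2g4a encodes the cytosolic phospholipase A2 that prefers arachidonic acid and supplies most of it for eicosanoid synthesis. Its level was 25.6, 41.1 and 34.2 CPM in HDM+nafamostat mice, 29.2, 34.8 and 36.1 CPM in HDM mice, and 26.0, 16.8, 20.2 and 25.4 CPM in PBS mice. Every HDM library was above every PBS library, and HDM+nafamostat 1 was the only HDM-exposed library within the PBS range. Pla2g4a rose 1.51-fold in HDM mice (log2 fold change 0.60, SE 0.18, adjusted p = 0.0210, edgeR) and 1.54-fold in HDM+nafamostat mice (log2 fold change 0.62, SE 0.20, adjusted p = 0.0455, edgeR) against PBS. These were close to the threshold. Leaving out PBS 2, PBS 3, HDM 2 or HDM 3 lost the first (adjusted p = 0.0505 to 0.0849, edgeR), and leaving out PBS 2, PBS 3, HDM+nafamostat 2 or HDM+nafamostat 3 lost the second (adjusted p = 0.104 to 0.240, edgeR), as did scaling by library totals (adjusted p = 0.0667). HDM+nafamostat and HDM mice did not differ by the test (log2 fold change 0.00, 95% confidence interval −0.40 to 0.41).

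Pla2g4c encodes a cytosolic relative of Pla2g4a that lacks the calcium-binding C2 domain. Its amplicon was read 13, 19 and 24 times in HDM+nafamostat mice, 26, 13 and 20 times in HDM mice, and 1, 1, 6 and 4 times in PBS mice. In CPM these were 1.65, 2.07 and 2.53 in HDM+nafamostat mice, 3.01, 1.84 and 2.59 in HDM mice, and 0.165, 0.145, 0.778 and 0.636 in PBS mice. Both HDM-exposed groups lay above all PBS libraries and overlapped each other. The fold change over PBS was 5.52 in HDM mice (log2 fold change 2.46, SE 0.77, adjusted p = 0.0253, edgeR) and 4.66 in HDM+nafamostat mice (log2 fold change 2.22, SE 0.66, adjusted p = 0.0308, edgeR). The first call was lost without PBS 1 (adjusted p = 0.0562, edgeR) or HDM 1 (adjusted p = 0.0703). The second was lost without PBS 1, PBS 2, HDM+nafamostat 2 or HDM+nafamostat 3 (adjusted p = 0.0675 to 0.110, edgeR). The direction held in each of these. Between HDM+nafamostat and HDM mice the log2 fold change was −0.26, and its interval of −1.30 to 0.78 spans both a fall and a rise.

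The calcium-independent member, Pla2g6, which remodels membrane phospholipids and is known for inherited neurodegeneration in humans, did not pass the test in any comparison. It measured 11.3, 17.9 and 13.9 CPM in HDM+nafamostat mice, 15.2, 11.02 and 13.5 CPM in HDM mice, and 10.0, 19.0, 13.7 and 8.90 CPM in PBS mice. The 3 groups overlapped, and the PBS libraries alone spanned the whole range. The log2 fold changes were 0.03 for HDM against PBS (95% confidence interval −0.51 to 0.57), 0.11 for HDM+nafamostat against HDM (−0.36 to 0.59) and 0.16 for HDM+nafamostat against PBS (−0.39 to 0.71). Changes of 2-fold lay outside all 3 intervals, and smaller ones did not.

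Among the secreted enzymes, Pla2g2d is known in mice as an enzyme of dendritic cells and macrophages in lymphoid tissue that releases lipids which dampen immune responses. It measured 14.6, 12.3 and 11.5 CPM in HDM+nafamostat mice, 44.1, 14.7 and 32.2 CPM in HDM mice, and 16.9, 6.52, 5.06 and 13.3 CPM in PBS mice. HDM 1 and HDM 3 were above all other libraries, and HDM 2 was below PBS 1. Pla2g2d rose 2.94-fold in HDM against PBS mice (log2 fold change 1.56, SE 0.37, adjusted p = 0.00547, edgeR). That call held under all 15 alternatives, with log2 fold changes of 1.20 to 1.89.

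Pla2g2d was also the member that fell in HDM+nafamostat against HDM mice (log2 fold change −1.26, SE 0.30, adjusted p = 0.0405, edgeR). The 2 groups did not overlap, but they came as close as 14.6 CPM in HDM+nafamostat 1 and 14.7 CPM in HDM 2. The call was lost in 8 of 14 alternatives. It was lost without HDM 1 (log2 fold change −0.91, adjusted p = 0.117, edgeR), HDM 3 (−1.21, adjusted p = 0.0736), HDM+nafamostat 1 (−1.37, adjusted p = 0.0599), HDM+nafamostat 2 (−1.24, adjusted p = 0.0576) or HDM+nafamostat 3 (−1.18, adjusted p = 0.196). It was also lost with all 3 groups in 1 fit (adjusted p = 0.0733, edgeR) and with the libraries thinned to the smallest total (adjusted p = 0.0516). HDM+nafamostat and PBS mice overlapped and did not differ by the test (log2 fold change 0.31, 95% confidence interval −0.37 to 0.99). That value was 0.07 without PBS 3, 0.15 without PBS 2 and 0.64 without PBS 1, and did not pass the test in any of these.

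Dendritic cell and B cell markers differed between the groups as well. At any fold, 15.3% of all genes rose in HDM against PBS mice and 1.97% fell in HDM+nafamostat against HDM mice. Of 12 dendritic cell markers, 9 rose in HDM against PBS mice (edgeR, any fold), and their sum, led by H2-DMb2 and Ccr7, was 284 to 314 CPM in HDM+nafamostat mice, 339 to 350.1 CPM in HDM mice and 202 to 225 CPM in PBS mice. In HDM+nafamostat against HDM mice 0 of the 12 passed by edgeR or DESeq2, with 1 lower at an unadjusted p under 0.05. Against PBS mice, where Pla2g2d did not pass the test, 6 of 12 were higher in HDM+nafamostat mice, beside 8.73% of all genes. Among the 8 B and plasma cell markers, led by Jchain, 4 rose and 1 fell in HDM against PBS mice, and 3 fell in HDM+nafamostat against HDM mice. Their sum was 536 to 771 CPM in HDM+nafamostat mice, 903 to 1382 CPM in HDM mice and 278 to 412 CPM in PBS mice. No marker of either list was at 0 in all libraries, and their part in the level of Pla2g2d was not tested. HDM 2 had 14.7 CPM of Pla2g2d with 339 CPM of dendritic cell markers and 1157 CPM of B and plasma cell markers. The 10 T cell markers, 4 of them higher in HDM than in PBS mice (edgeR, any fold), summed to 316 CPM in HDM 2. Their sum was 442 CPM in HDM 1 and 439 CPM in HDM 3. It was 290 to 351 CPM in HDM+nafamostat mice, and 288, 202, 246 and 288 CPM in PBS mice. The part of T cells in the level of Pla2g2d was not tested either. The plot of both genes against marker sums, without the T cell sum, gives each library.

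**Figure D2:**
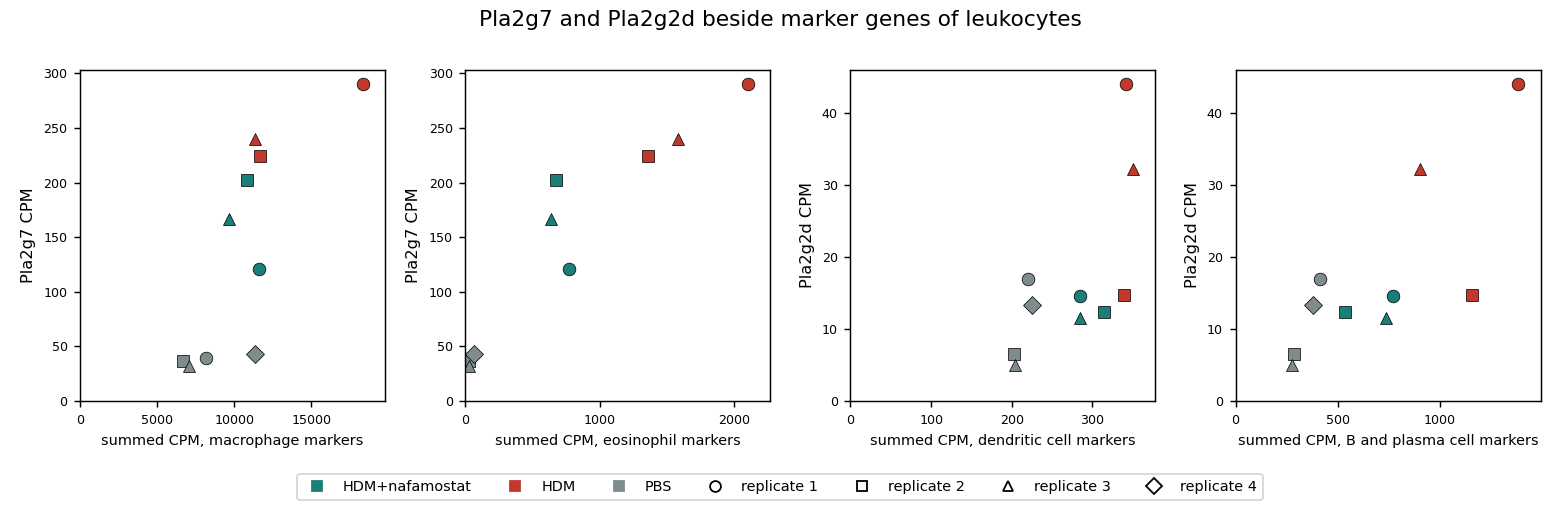
Level of Pla2g7 (left pair of panels) and Pla2g2d (right pair) on the vertical axis, in CPM, against the summed CPM of marker lists on the horizontal axis; each point is 1 library, with color for group and shape for replicate. HDM libraries had 1358 to 2101 CPM of eosinophil markers and PBS libraries 24.5 to 64.0 CPM, and HDM 2 joined a B and plasma cell sum of 1157 CPM with 14.7 CPM of Pla2g2d.

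Pla2g2e, a secreted enzyme known in mice mainly from hair follicles and fat tissue, was read 11, 22 and 17 times in HDM+nafamostat mice, 20, 21 and 26 times in HDM mice, and 9, 9, 6 and 1 times in PBS mice. Its level was 1.40 to 2.40 CPM in HDM+nafamostat mice, 2.32 to 3.37 CPM in HDM mice and 0.159 to 1.48 CPM in PBS mice. The HDM and PBS groups did not overlap, and the HDM+nafamostat group overlapped both. The log2 fold change of HDM over PBS was 1.62 (SE 0.65, adjusted p = 0.0728, edgeR), which missed the threshold in the fit reported here and passed it in 2 of 15 alternatives. In HDM+nafamostat mice it was −0.63 against HDM (adjusted p = 0.477, edgeR) and 1.01 against PBS (adjusted p = 0.318).

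Pla2g5, a secreted enzyme of macrophages and airway epithelium that has been tied to allergic lung responses in mice, was read 8, 14 and 13 times in HDM+nafamostat mice, 14, 5 and 20 times in HDM mice, and 3, 4, 4 and 2 times in PBS mice. Its level was 1.02 to 1.53 CPM in HDM+nafamostat mice, 0.707 to 2.59 CPM in HDM mice and 0.318 to 0.580 CPM in PBS mice. All 6 HDM-exposed libraries were above all 4 PBS libraries, HDM 2 only just, with 0.707 CPM against 0.580 CPM in PBS 2. Neither difference passed the test, with log2 fold changes over PBS of 1.75 in HDM mice (SE 0.79, adjusted p = 0.111, edgeR) and 1.43 in HDM+nafamostat mice (SE 0.65, adjusted p = 0.161). Without HDM 3 the value in HDM mice was 1.26 (SE 0.75, adjusted p = 0.254, edgeR). Between HDM+nafamostat and HDM mice the log2 fold change was −0.34 (SE 0.70, adjusted p = 0.814, edgeR), and it was 0.15 without HDM 3 and −0.69 without HDM 2. Pla2g2a, which lies inside Pla2g5 on the other strand, had 6 counts in HDM 3 and 0 in the other 9 libraries.

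Pla2g1b, the digestive phospholipase A2 of the pancreas, was well covered in lung. It measured 106, 93.7 and 104 CPM in HDM+nafamostat mice, 143, 95.5 and 73.4 CPM in HDM mice, and 71.6, 78.1, 75.7 and 90.3 CPM in PBS mice. HDM mice ranged widely, with HDM 1 the highest of the 10 libraries and HDM 3 within the PBS range, whereas the 3 HDM+nafamostat mice lay above all PBS mice. The test was not passed for HDM against PBS (log2 fold change 0.40, SE 0.18, adjusted p = 0.116, edgeR) or for HDM+nafamostat against PBS (log2 fold change 0.37, SE 0.14, adjusted p = 0.0797). Without HDM 3 the first came to a log2 fold change of 0.59 and was past the threshold (adjusted p = 0.0219, edgeR), and without HDM 1 it came to 0.11 (adjusted p = 0.671). The second passed the threshold without PBS 4 (log2 fold change 0.43, adjusted p = 0.0338, edgeR). The 11 pancreatic acinar genes on the panel summed to 16.5 to 24.6 CPM in HDM+nafamostat mice, 26.0 to 28.5 CPM in HDM mice and 13.4 to 25.6 CPM in PBS mice, of which 77.8% was Rbpjl, and Ctrb1, a major product of acinar cells, was at 0 in every library.

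Pla2g3, a larger secreted enzyme related to that of bee venom, was the least read member. Its counts were 2, 1 and 1 in HDM+nafamostat mice, 7, 5 and 15 in HDM mice, and 1, 1, 2 and 0 in PBS mice. All HDM libraries were above all others. It was called higher in HDM than in PBS mice (log2 fold change 2.85, SE 1.03, adjusted p = 0.0483, edgeR), on 31 counts in all, just past the minimum of 30. That call held in 2 of the 9 alternatives that could be fitted, and adjusted p reached 0.200. HDM 3, the library with 1609 CPM of olfactory receptor genes, gave 15 of the 27 HDM counts, and without it 16 counts remained in the 2 groups, too few to be tested. In HDM+nafamostat against HDM mice the log2 fold change was −2.81 (SE 1.01, adjusted p = 0.133, edgeR), and against PBS mice no test was made on 8 counts.

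Inpp5j, a phosphoinositide phosphatase gene on the opposite strand of the Pla2g3 locus, was higher in HDM mice too. It measured 2.797, 3.38 and 2.11 CPM in HDM+nafamostat mice, 4.99, 5.09 and 4.01 CPM in HDM mice, and 0, 0.435, 0.389 and 0.477 CPM in PBS mice. It rose in HDM against PBS mice (log2 fold change 3.76, SE 0.61, adjusted p = 0.000306, edgeR), with HDM 3 the lowest of the HDM libraries. If strand was not used, reads of the 2 genes cannot be told apart where they overlap.

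**Figure D3:**
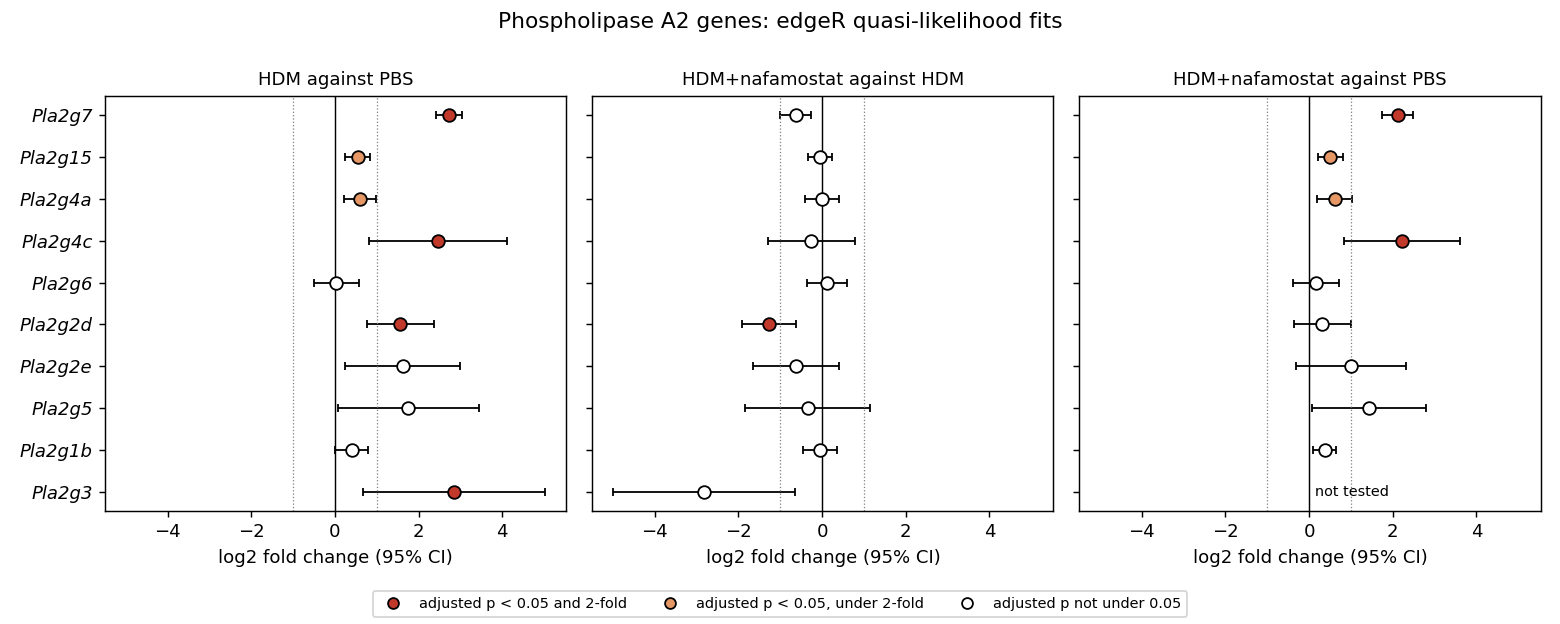
Log2 fold change with 95% confidence interval of each member in 3 comparisons from edgeR's quasi-likelihood fits, with dotted lines at 2-fold. Filled red points were called at 2-fold, orange points at a smaller fold, and open points not; Pla2g7 stood at 2.73 for HDM against PBS with a narrow interval, and Pla2g3 at 2.85 with an interval from 0.66 to 5.03.

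For the members called at any fold and tested in all 3 comparisons, the genes whose levels followed theirs most closely over the 10 libraries were sought among the 9491 other genes at a mean of 10 CPM or more (9492 for Pla2g4c). Likeness was the mean absolute difference of centred log2 CPM, and it is a description of these libraries, in which the groups themselves set much of the pattern. Among the genes closest to Pla2g7 was Ch25h, a cholesterol hydroxylase of macrophages, at 0.12, against a range of 3.15 in Pla2g7 itself. Closest to Pla2g4c were Ccl22, a chemokine of dendritic cells and macrophages, at 0.24, and Ptpn7 at 0.26. Pla2g2d had no gene as near, with Hebp2 at 0.34 and Cox7b at 0.35 over a range of 3.06. Pla2g15 was followed by Cdk2ap2 at 0.06 and Mrps17 at 0.06, and Pla2g4a by Lsm2 at 0.10 and Ctps at 0.11, both over narrow ranges.

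The promoters of Pla2g7 and Pla2g2d, the members called in HDM against PBS mice under all 15 alternatives, are given as 300 bases each from RefSeq on GRCm38.p6, from 250 bases before the annotated start to 50 after it. Both are read on the plus strand, Pla2g7 at chr17:43568201-43568500 and Pla2g2d at chr4:138775485-138775784. The 2 annotations differ for Pla2g7, whose RefSeq start lies further in than the GENCODE start at chr17:43568098. Its stretch is therefore inside the gene as placed above. Of the 10 members, 9 had a promoter in that table, 12 promoters in all. Capitals mark matches, on either strand, to the 4 motifs searched, which were the STAT6 motif (TTC and GAA with 4 bases between them), TTCNNNGAA (the spacing of other STAT factors), TGANTCA (AP-1) and GGGCGG (SP1). In the promoter of Pla2g7 the capitals are a TTCNNNGAA match and a GGGCGG match on the minus strand, and in that of Pla2g2d a GGGCGG match.
Pla2g7: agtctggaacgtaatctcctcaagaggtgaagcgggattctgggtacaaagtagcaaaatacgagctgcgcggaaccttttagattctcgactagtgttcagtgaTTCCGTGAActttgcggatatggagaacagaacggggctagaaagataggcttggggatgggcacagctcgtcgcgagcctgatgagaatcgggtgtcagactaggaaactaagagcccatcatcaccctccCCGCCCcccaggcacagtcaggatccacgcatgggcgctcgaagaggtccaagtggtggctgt
Pla2g2d: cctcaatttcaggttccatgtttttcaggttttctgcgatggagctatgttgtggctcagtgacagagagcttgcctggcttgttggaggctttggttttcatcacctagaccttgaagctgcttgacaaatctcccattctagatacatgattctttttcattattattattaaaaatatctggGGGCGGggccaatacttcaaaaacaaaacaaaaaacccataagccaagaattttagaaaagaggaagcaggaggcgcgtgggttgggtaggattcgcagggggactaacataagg

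The STAT6 motif occurred in 6.95% of the 32851 promoters in the table and in 0 of the 12 of the members. TTCNNNGAA, found in 8.30% of promoters, occurred in that of Pla2g7 alone among the members. TGANTCA, found in 7.81%, occurred in that of Pla2g2e, and GGGCGG, found in 35.7%, in those of Pla2g15, Pla2g2d, Pla2g6 and Pla2g7. A match describes the letters and no binding was measured.

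The list of other phospholipases A2 on the panel holds the remaining Pla2g genes, the Pnpla lipases, the intracellular PAF acetylhydrolases and the gene Lcat. Of its 22 genes, 14 were tested in HDM against PBS mice, and Pnpla7 (log2 fold change 0.99, SE 0.17), Pla2g16 (0.55, SE 0.14) and Pafah1b3 (0.80, SE 0.25) rose by edgeR at any fold, with 0 at 2-fold or more. Of all genes, 15.3% rose at any fold. Pla2g10 was among the 8 of the list with too few counts to be tested. The median log2 fold change of the 14 was 0.06. Between HDM+nafamostat and HDM mice 0 of 15 passed by edgeR or DESeq2, and 2 were lower at an unadjusted p under 0.05. The shares of all genes there were 0.951% higher and 1.97% lower. Against PBS mice, Pnpla7 rose in HDM+nafamostat mice (0.73, SE 0.18). Pla2g4d and Pnpla1 were at 0 in every library.

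Of 8 genes for the phospholipase A2 receptor and for proteins that act on these enzymes, 2 rose and 1 fell in HDM against PBS mice. At any fold, 15.3% of all genes rose and 14.2% fell. Pla2r1, the receptor that binds and clears secreted phospholipases A2, fell (log2 fold change −1.45, SE 0.20, adjusted p = 6.2e-05, edgeR), and was at 15.1 CPM in HDM+nafamostat mice, 8.46 CPM in HDM mice and 23.1 CPM in PBS mice on average. Anxa1, an annexin known to restrain the cytosolic enzyme, rose (1.06, SE 0.16), and so did S100a10 (0.86, SE 0.20), which binds annexin A2 and Pla2g4a. With nafamostat, set against HDM alone, Pla2r1 was higher (0.83, SE 0.21, adjusted p = 0.0498, edgeR) and S100a10 lower (−0.70, SE 0.17, adjusted p = 0.0392). Of all genes, 0.951% were higher and 1.97% lower in that comparison at any fold. Against PBS mice, HDM+nafamostat mice still had less Pla2r1 (−0.60, SE 0.19, adjusted p = 0.0368, edgeR) and more Anxa1 (0.59, SE 0.16).

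On the PAF side, 3 of 15 genes tested rose and 4 fell in HDM against PBS mice at any fold, where 15.3% and 14.2% of all genes did. Lpcat2, the enzyme that makes PAF in inflammatory cells (log2 fold change 1.51, SE 0.18), the PAF receptor gene Ptafr (3.41, SE 0.61) and Acsl4 (0.69, SE 0.14), which activates arachidonic acid, rose with Pla2g7, the enzyme that removes PAF. Elovl5, a fatty acid elongase, was the most significant of those that fell (−0.63, SE 0.14). In HDM+nafamostat against HDM mice, 1 gene, the desaturase Fads2, rose (0.54, SE 0.14, adjusted p = 0.0477, edgeR), and 0 fell by edgeR, at an unadjusted p under 0.05 or by DESeq2, whereas 6 were higher at an unadjusted p under 0.05 and 4 by DESeq2. The shares of all genes in that comparison were 0.951% higher and 1.97% lower at any fold. Lpcat2 (1.28, SE 0.21), Acsl4 (0.73, SE 0.13) and Ptafr (2.50, SE 0.69) were higher in HDM+nafamostat than in PBS mice, as was Lpcat3, beside 8.73% of all genes.

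Downstream of arachidonic acid, 10 of 15 leukotriene and lipoxin genes tested rose and 2 fell in HDM against PBS mice. At any fold, 15.3% and 14.2% of all genes did. Alox15, the lipoxygenase of macrophages and eosinophils (log2 fold change 4.91, SE 0.35), Cyp4f18, which inactivates leukotriene B4 in mice (3.17, SE 0.20), Alox5ap, the partner of 5-lipoxygenase (1.52, SE 0.15), and Alox12e (3.75, SE 0.56) led those that rose. With nafamostat 3 fell against HDM mice, Alox15 (−0.74, SE 0.14, adjusted p = 0.0179, edgeR), Cyp4f18 (−0.79, SE 0.19, adjusted p = 0.0432) and Alox5ap (−0.54, SE 0.13, adjusted p = 0.0491). Of all genes, 1.97% fell in that comparison. Against PBS mice, 8 of the 15 genes were higher and 1 lower in HDM+nafamostat mice, beside 8.73% and 5.53% of all genes. The median log2 fold change of the 15 genes was 1.19 for HDM against PBS, −0.20 for HDM+nafamostat against HDM and 1.00 for HDM+nafamostat against PBS.

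The prostanoid genes moved in both directions. At any fold, 15.3% of all genes rose and 14.2% fell in HDM against PBS mice. In HDM against PBS mice, 9 of 20 rose and 5 fell, with thromboxane synthase Tbxas1 (log2 fold change 2.86, SE 0.19), the prostacyclin receptor Ptgir (2.28, SE 0.28) and the prostaglandin D2 synthase Hpgds (1.92, SE 0.24) higher, and Hpgd, which inactivates prostaglandins (−1.40, SE 0.17), lower. In HDM+nafamostat against HDM mice, the carbonyl reductase Cbr1 (−1.18, SE 0.22) and Tbxas1 (−0.85, SE 0.19) fell and Hpgd rose (0.75, SE 0.16). Of all genes, 1.97% fell and 0.951% rose in that comparison. Against PBS mice, 7 of 21 were higher and 1 lower in HDM+nafamostat mice, beside 8.73% and 5.53% of all genes.

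Of 17 genes for enzymes and receptors of lysophospholipids, the other product of a phospholipase A2, 3 rose and 4 fell in HDM against PBS mice, beside 15.3% and 14.2% of all genes. The sphingosine phosphate receptor S1pr1, abundant on endothelium (log2 fold change −1.11, SE 0.15), the lipid phosphatases Plpp3 (−0.81, SE 0.14) and Plpp1 (−1.005, SE 0.20), and the receptor Lpar3 (−0.95, SE 0.21) were the 4 that fell. In HDM+nafamostat against HDM mice 0 of 17 passed by edgeR, with 3 higher and 1 lower at an unadjusted p under 0.05 and 2 higher by DESeq2. The shares of all genes there were 0.951% higher and 1.97% lower. Epithelial markers moved beside these lists, with 7 of 11 lower and 1 higher in HDM against PBS mice, and sums of 42376 to 57787 CPM in HDM+nafamostat mice, 43638 to 54011 CPM in HDM mice and 61305 to 76536 CPM in PBS mice. Their part in the falls was not tested.

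**Figure D4:**
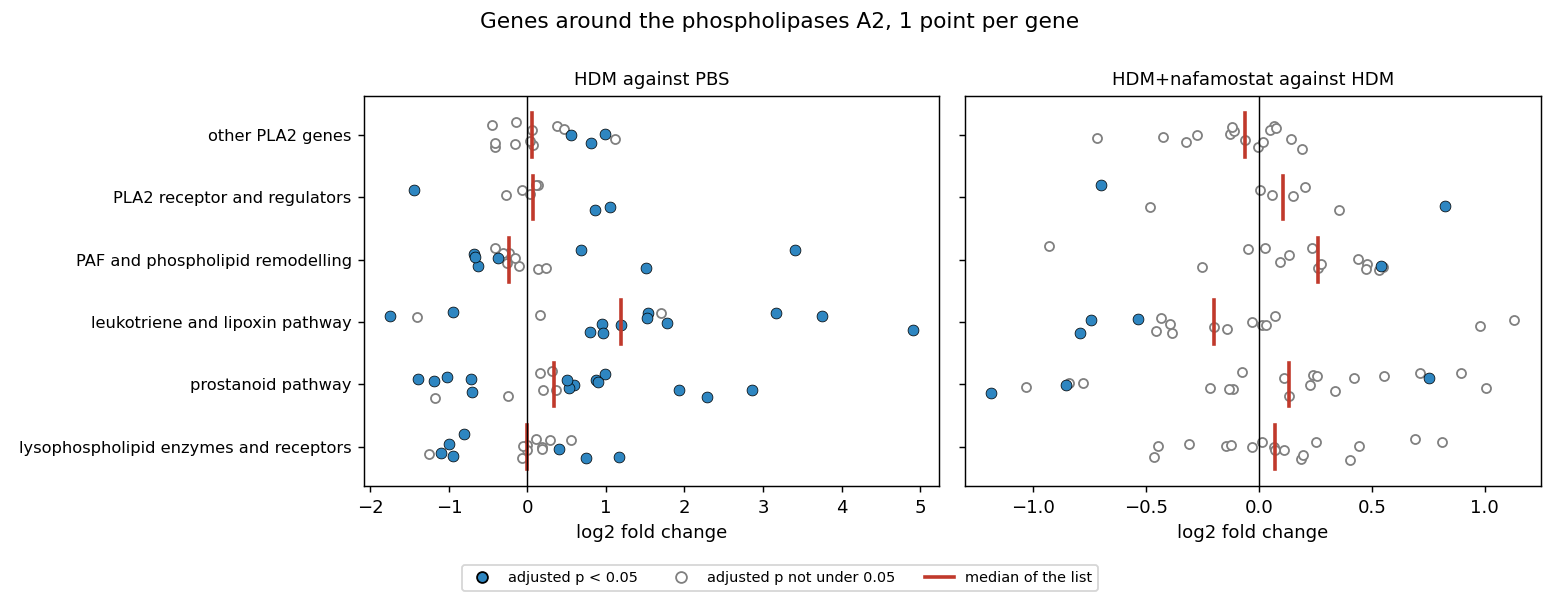
Log2 fold change of each gene in 6 lists around the phospholipases A2, for HDM against PBS (left) and HDM+nafamostat against HDM (right, with its own scale). Each point is 1 gene, blue where it passed edgeR's test at any fold, and the red line is the median of the list, which for the leukotriene and lipoxin genes stood at 1.19 on the left and −0.20 on the right.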

How the data were processed

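Lung RNA of 10 mice, 1 library per mouse, was read with the AmpliSeq mouse transcriptome panel (Ion Torrent). The authors deposited raw counts per amplicon in 3 files, 1 per group, with mm10 as the build in the submitters' processing notes. The settings of the aligner and counter are not given in the sources used here, and the methods also name normalized values, whereas the deposited counts are whole numbers with totals of 5901279 to 9666354. Spreadsheet-altered symbols (27 targets) were read back from amplicon names. No 2 libraries were identical (chi-square per gene between replicates 8.11 to 24.7). Pairs of groups were fitted separately in R 4.3.3 with edgeR 4.0.16, after TMM scaling and a minimum of 30 counts summed over the comparison, by the quasi-likelihood F test with Benjamini-Hochberg adjustment over all genes tested. Confidence intervals and p-values cover the spread between these mice, which includes that of dissection and library preparation, and counts are of reads without molecular identifiers.

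The members and the gene lists were chosen with earlier results of these data known. All 10 members were named, and at most 4 genes of each pathway list with the smallest p, the most abundant and undetected markers, and the 2 most similar profiles per called member among genes at 10 CPM or more (log2 CPM, prior count 2); Inpp5j and the remaining Pla2g genes were named after their values were seen. Alternatives were DESeq2 1.42.0, its size factors in edgeR, library totals, no filter, filterByExpr, all groups in 1 fit, the replicate number as a block, thinned libraries, no fold threshold, and each library left out. Of the 2 profiles most similar to that of Pla2g7, 1 is not reported here. The code was tested on simulated data.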

Additional observations from a re-analysis of the deposited data

Results flagged for a closer look

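Pla2g15 was 48.9 CPM in PBS replicate 3, below the 60.1, 61.6 and 60.2 CPM of the other PBS mice. The gap to the nearest of them was 0.881 of the range of the 4 PBS libraries, past Dixon's 95% critical value of 0.829. All 10 members were examined in the PBS group in this way, the groups of 3 mice being too small, and chance passes that value in about 1 of 20 groups.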

How the results depend on the processing

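The direction of the called members held under every alternative run, and Pla2g7 and Pla2g2d kept their calls in HDM against PBS mice under all 15. The number of members called in HDM against PBS mice, 4 here, was 5 with all 3 groups in 1 fit, 3 with library totals, DESeq2, no filter or thinned libraries, 2 with the replicate number as a block and 2 to 3 when 1 library was left out (2 without PBS 1 or HDM 1). The 1 member called in HDM+nafamostat against HDM mice became 0 with all 3 groups in 1 fit, with the replicate block, and with thinned libraries, and was 0 to 1 when 1 library was left out. The 2 members called in HDM+nafamostat against PBS mice were 4 at any fold and 1 to 2 with a library left out. Genes called overall were 4311, 421 and 2008 at any fold, against 1662, 120 and 811 at 2-fold. For HDM+nafamostat against HDM they were 251 with no filter, 57 with the replicate block and 14 to 241 with a library left out (14 without HDM+nafamostat 3, 71 without HDM 3, 241 without HDM+nafamostat 2). Scaling by library totals moved the split for HDM against PBS to 918 higher and 765 lower, against 1063 and 599 with TMM.

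Signs turned in fold changes that did not pass the test. For HDM against PBS, Pla2g6 became −0.068 with library totals, −0.079 with the replicate block and −0.11 to 0.28 with a library left out. For HDM+nafamostat against HDM, Pla2g1b became 0.014 with library totals, 0.0048 with the block and −0.24 to 0.24 with a library left out, and Pla2g15 became 0.0046 with totals and −0.11 to 0.059 with a library left out. Pla2g4a became −0.00068 with DESeq2's size factors, −0.0013 with DESeq2, −0.0058 with filterByExpr, −0.017 with the block, −0.0101 with thinned libraries and −0.17 to 0.16 with a library left out. Leave-one-out ranges were −0.69 to 0.15 for Pla2g5 (−0.34 with all libraries) and −0.082 to 0.25 for Pla2g6, and −0.037 to 0.41 for Pla2g6 in HDM+nafamostat against PBS. Same-numbered mice did not visibly deviate together (correlations −0.32 to 0.18, and −0.33 to 0.41 for other pairs). With so few mice per group, this check cannot exclude a pairing. With the replicate number as a block, Pla2g4c (adjusted p = 0.0581, edgeR) and Pla2g3 (0.200) lost their calls in HDM against PBS mice and Pla2g2d (0.0656) in HDM+nafamostat against HDM mice, and Pla2g1b (0.0322) passed the test in HDM+nafamostat against PBS mice, under 2-fold. Pla2g3 and, against PBS under filterByExpr, Pla2g5 had too few counts for some settings. At 0 to 26 counts per library, differences in Pla2g2e, Pla2g3, Pla2g4c and Pla2g5 are limited by depth.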

Other observations

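Pla2g10, a secreted phospholipase A2 that releases arachidonic acid efficiently and is known from the airway epithelium of mice in allergen models, is not among the 10 genes described above. Its amplicon was read 8, 16 and 3 times in HDM+nafamostat mice, 4, 10 and 9 times in HDM mice, and 0, 0, 1 and 0 times in PBS mice. All HDM-exposed libraries were above all PBS libraries, and the 2 HDM-exposed groups overlapped. The ratio of counts per sequenced read over PBS was 26.6 in HDM+nafamostat mice (95% interval 4.39 to 1090.4) and 24.9 in HDM mice (4.04 to 1024), which cover counting error only and rest on 1 count in PBS mice. The gene was under the minimum of 30 counts against PBS. With no minimum, edgeR gave an adjusted p of 0.0436 for HDM+nafamostat and 0.0517 for HDM mice, both against PBS, and its log2 fold change between HDM+nafamostat and HDM mice was 0.02 (SE 0.85, adjusted p = 0.992) in the fit with the minimum.

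Pla2g16, a phospholipase known from adipose tissue, averaged 76.9 CPM in HDM mice and 52.5 CPM in PBS mice. In HDM+nafamostat mice it was 71.7, 55.7 and 58.5 CPM, in HDM mice 71.1, 77.5 and 82.1 CPM, and in PBS mice 56.6, 46.2, 57.2 and 49.9 CPM. Its fall in HDM+nafamostat against HDM mice did not pass the test (log2 fold change −0.32, SE 0.14, adjusted p = 0.210, edgeR). Pla2g4f and Pla2g12a, a cytosolic and a secreted member, did not pass edgeR's test in any of the 3 comparisons, with log2 fold changes of 0.38 (SE 0.32) and 0.07 (SE 0.18) for HDM against PBS.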
